A study of Mus musculus with 40 samples.

Results

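Glutathione S-transferases are the enzymes that join the tripeptide glutathione to electrophilic compounds, and the 10 genes described here are the alpha-class Gsta1, Gsta2, Gsta3 and Gsta4, the mu-class Gstm1, Gstm2, Gstm3 and Gstm4, the pi-class Gstp1 and the theta-class Gstt2. They were taken by symbol from the unstranded gene counts of mouse liver and are 10 of the 55359 annotated genes counted. All 10 passed the filter on low counts, as did 15373 genes in all. In the count tables the alpha members are ENSMUSG00000074183, ENSMUSG00000057933, ENSMUSG00000025934 and ENSMUSG00000032348, in the order of their names. The mu members are ENSMUSG00000058135, ENSMUSG00000040562, ENSMUSG00000004038 and ENSMUSG00000027890, Gstp1 is ENSMUSG00000060803, and Gstt2 is ENSMUSG00000033318.

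The livers came from 40 male C57BL/6 mice supplied by Charles River, 5 in each of 8 groups, which were 30 days old at the start and 58 days old at the end. The 7 treated groups received TCDD, a dioxin that binds the aryl hydrocarbon receptor (AhR), at 30, 10, 3, 1, 0.3, 0.1 or 0.03 µg/kg in sesame oil, and the control group received the oil alone. Gavage was repeated at intervals of 4 days over 28 days, which made 7 gavages. The labels name no transgene or deleted allele, and 1 library was made per mouse from total RNA of whole liver.

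In liver these enzymes make up a large share of soluble protein, and they conjugate the reactive products of cytochrome P450 metabolism and of lipid peroxidation so that transporters and peptidases can remove them. The alpha class also reduces lipid hydroperoxides, Gsta4 has a preference for the lipid aldehyde 4-hydroxynonenal, the mu class acts on epoxides and other small electrophiles, and the theta class acts on small halogenated compounds. Several of the genes are known targets of NRF2 (encoded by Nfe2l2), which binds antioxidant response elements, and of AhR, which binds dioxin response elements. In these data Cyp1a1, the standard AhR target, lay between 0.98 and 2.33 CPM (a counts-per-million value scaled by TMM factors) in the vehicle mice. In the 30 µg/kg mice it lay between 4750 and 6376 CPM, so these groups matched their labels. These values do not check the labels of the doses between. Gene counts per library were 15496128 to 20967093 (median 17450632), of which the 10 members held 0.653% ± 0.059 (SD, n = 5) in vehicle livers and 1.58% ± 0.47 at 30 µg/kg.

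The promoter windows of 6 transferases, from 250 bases before to 50 after the start site, are shown because neighbouring or closely related genes among them differed in their response. They are RefSeq sequences on GRCm38.p6, written 5′ to 3′ on the gene's own strand. The Gsta1 window is chr9:78230419-78230718 (plus strand), Gsta2 is chr9:78347096-78347395 (minus), Gsta3 is chr1:21240335-21240634 (plus), Gstm3 is chr3:107969125-107969424 (minus), Gstp1 is chr19:4037863-4038162 (minus) and Gstp2, a close copy of Gstp1, is chr19:4042172-4042471 (minus). Capitals mark the core of the dioxin response element, GCGTG, or of the antioxidant response element, TGACNNNGC, searched on both strands.
Gsta1: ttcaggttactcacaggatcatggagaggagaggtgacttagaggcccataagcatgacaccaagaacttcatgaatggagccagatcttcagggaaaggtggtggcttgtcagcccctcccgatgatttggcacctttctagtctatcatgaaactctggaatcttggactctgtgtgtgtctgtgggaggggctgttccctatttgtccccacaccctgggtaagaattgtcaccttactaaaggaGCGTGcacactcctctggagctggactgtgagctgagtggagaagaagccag
Gsta2: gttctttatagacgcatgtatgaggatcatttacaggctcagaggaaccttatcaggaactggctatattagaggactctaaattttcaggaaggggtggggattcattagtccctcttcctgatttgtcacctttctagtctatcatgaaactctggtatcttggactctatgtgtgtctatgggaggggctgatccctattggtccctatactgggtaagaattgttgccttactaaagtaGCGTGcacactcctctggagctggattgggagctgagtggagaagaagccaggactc
Gsta3: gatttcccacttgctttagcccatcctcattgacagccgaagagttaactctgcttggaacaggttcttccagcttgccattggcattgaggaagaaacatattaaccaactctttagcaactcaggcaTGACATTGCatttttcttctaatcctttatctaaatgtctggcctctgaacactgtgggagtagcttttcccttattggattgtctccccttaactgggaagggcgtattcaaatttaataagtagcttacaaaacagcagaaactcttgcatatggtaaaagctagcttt
Gstm3: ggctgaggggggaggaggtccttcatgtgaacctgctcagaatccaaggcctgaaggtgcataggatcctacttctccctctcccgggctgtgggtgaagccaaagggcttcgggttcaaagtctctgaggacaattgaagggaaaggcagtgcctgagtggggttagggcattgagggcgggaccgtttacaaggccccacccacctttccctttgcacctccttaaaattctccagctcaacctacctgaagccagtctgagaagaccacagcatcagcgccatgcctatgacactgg
Gstp1: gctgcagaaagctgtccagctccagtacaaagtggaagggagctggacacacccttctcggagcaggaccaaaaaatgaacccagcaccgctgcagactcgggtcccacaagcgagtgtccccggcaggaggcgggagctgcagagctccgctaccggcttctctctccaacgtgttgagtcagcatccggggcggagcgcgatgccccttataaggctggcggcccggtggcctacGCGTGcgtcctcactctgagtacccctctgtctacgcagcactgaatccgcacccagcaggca
Gstp2: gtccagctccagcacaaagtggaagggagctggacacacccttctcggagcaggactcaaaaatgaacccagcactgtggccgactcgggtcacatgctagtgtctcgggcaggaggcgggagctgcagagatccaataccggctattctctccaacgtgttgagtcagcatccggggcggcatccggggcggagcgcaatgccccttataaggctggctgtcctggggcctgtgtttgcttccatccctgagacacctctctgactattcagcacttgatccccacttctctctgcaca

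Of the 32851 promoter windows in the RefSeq table, 32.4% held GCGTG and 12.4% held TGACNNNGC, so a match to the first is common. Positions below are those of the first base of a match. The Gsta1 and Gsta2 windows were 74.6% identical over their alignment, and each held 1 GCGTG. It began 2 bases before the start site in Gsta1, and so ran across that site, and 7 bases before it in Gsta2. The Gstp1 and Gstp2 windows were 76.4% identical, and GCGTG was in Gstp1 alone, 13 bases before the start. The Gsta3 window held the only TGACNNNGC among the members with an entry, 121 bases before the start. The windows of Gstm2, Gstm3 and Gstm4 held neither motif, and both windows of Gstm1 held the same GCGTG, which lay upstream of either start. Gsta4 and Gstt2 have no entry in the table.

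The number of members that changed rose with dose. A member was called when edgeR's quasi-likelihood test against vehicle gave a Benjamini-Hochberg adjusted p under 0.05 over all genes tested and the fold change was at least 1.5. None of the 10 was called at 0.03 or 0.1 µg/kg, where 0.0195% and 0.0976% of all genes were called in either direction. By the same rule of adjusted p and fold change, DESeq2 and limma called 0 members at either dose. At an unadjusted p under 0.05 edgeR gave 0 members at 0.03 µg/kg and 1, Gstm3, at 0.1 µg/kg. The share of all genes under that unadjusted cut was not counted. At 0.3 µg/kg Gstm3 was called higher (0.403% of all genes were). At 1 and at 3 µg/kg Gsta1 and Gstm3 were called higher (2.15% and 4.53% of all genes). At 10 µg/kg Gstm2 joined these, which made 3 members called higher and 0 lower, beside 13.6% and 8.13% of all genes. At 30 µg/kg 7 members were called higher, 2 lower and Gsta2 neither, beside 23.2% of all genes called higher and 18.9% lower. The median log2 fold change at 30 µg/kg was 1.18 for the members and 0.03 for all genes tested. A linear slope over the 8 ordered doses was upward for 7 members (31.5% of all genes) and downward for 2 (26.1%), and Gsta2 had an adjusted p of 0.11 in that edgeR fit. An upward slope does not mean a steady rise. In vehicle, at 10 and at 30 µg/kg mean Gstm1 was 2598, 2296 and 6132 CPM, and mean Gstm4 was 94.4, 81.9 and 204 CPM.

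**Figure D1:**
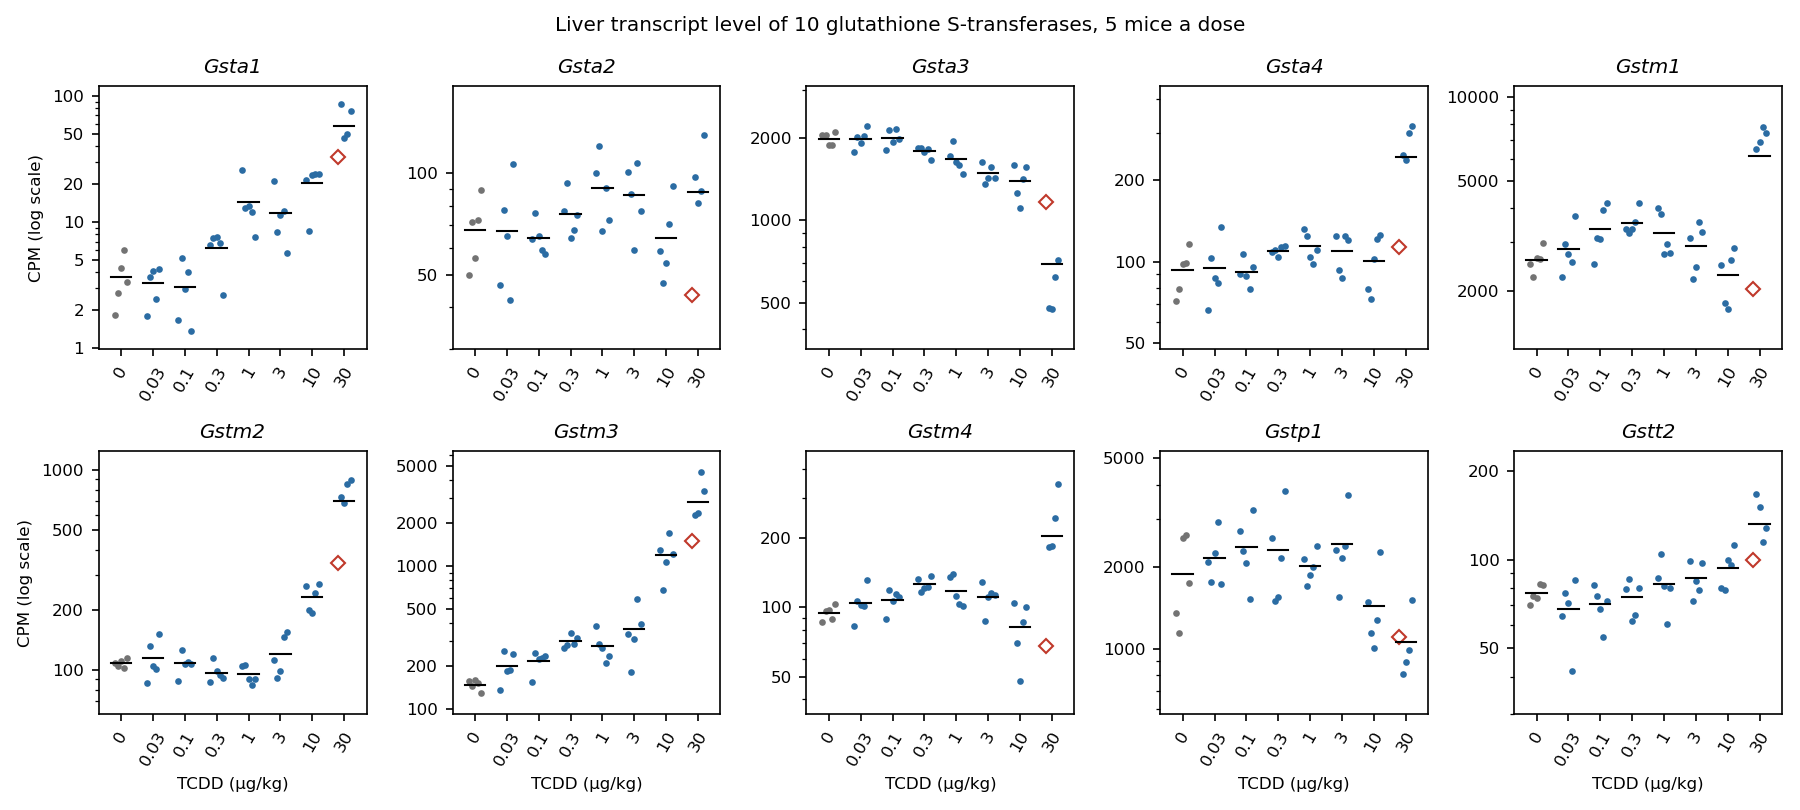
Level of each member in every mouse, in CPM on a log axis, by TCDD dose (0, vehicle, grey). Black lines are group means of 5 mice and the open red diamond is replicate 1 of the 30 µg/kg group, which lies below the other 4 mice of its group for 8 members and far above them for Gsta3.

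At 30 µg/kg 1 mouse stood apart. Replicate 1 had 2042 CPM of Gstm1, whereas the other 4 mice had 6492 to 7838 CPM, and it had 1167 CPM of Gsta3, whereas the others had 472 to 716 CPM. Its level of Cyp1a1 was 6230 CPM, within the range of its group, and its summed hepatocyte markers were the highest of the group (57263 CPM against 26799 to 45579 CPM). Its summed macrophage (386 against 538 to 1001 CPM), neutrophil (6.85 against 12.1 to 27.0 CPM) and stellate markers (160 against 306 to 388 CPM) were the lowest. Its lymphocyte, endothelial and cholangiocyte sums lay within the range of the other 4 mice. Without this mouse the counts of members called at 30 µg/kg against vehicle were again 7 higher and 2 lower, and the values without it are given below where they bear on a gene.

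Gstm3, which encodes a mu-class subunit, showed the largest change of the 10 at 30 µg/kg and was the member called at the lowest dose, though its calls at 0.3 and 1 µg/kg were not firm. Vehicle mice had 157, 144, 158, 153 and 128 CPM (mean 148 ± 12 (SD, n = 5)). The 0.3 µg/kg mice had 266, 281, 339, 285 and 313 CPM, all above every vehicle mouse. At 10 µg/kg the values were 1293, 675, 1065, 1694 and 1222 CPM, and at 30 µg/kg they were 1499, 2268, 2353, 4566 and 3328 CPM, so the 2 top doses overlapped each other and neither overlapped vehicle. The log2 fold change was 1.00 ± 0.24 (SE) at 0.3 µg/kg (edgeR adjusted p = 0.0408), 3.01 ± 0.26 at 10 µg/kg (adjusted p = 1.3e-11) and 4.24 ± 0.27 at 30 µg/kg (18.9-fold, adjusted p = 1.17e-15). The step from 10 to 30 µg/kg was itself called (log2 1.24 ± 0.24, adjusted p = 0.000130). The call at 0.3 µg/kg was lost when any 1 of the 10 vehicle or 0.3 µg/kg libraries was left out, and also with limma, with the 2 runs of sample numbers in the titles (up to 27 and from 28) as a covariate and within either run. The call at 1 µg/kg (log2 0.89 ± 0.24, adjusted p = 0.0272) was lost without any 1 of 6 libraries, which were vehicle replicates 2, 3, 4 and 5 and 1 µg/kg replicates 1 and 2 (log2 0.75 to 0.92 without them).

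Gsta1, an alpha-class subunit that was almost silent in control liver, rose from a level that was the lowest of the 10 per kilobase of exon. The vehicle mice had 1.84, 2.74, 4.34, 5.95 and 3.37 CPM, which were 37 to 85 counts per library. At 1 µg/kg the mice had 25.8, 12.8, 13.5, 12.0 and 7.67 CPM, all above vehicle, while at 3 µg/kg the lowest of 5.64 CPM lay within the vehicle range. At 30 µg/kg the mice had 32.6, 85.4, 46.3, 49.9 and 75.6 CPM, and every one was above every mouse at 10 µg/kg, where the highest was 24.0 CPM. The log2 fold change was 1.99 ± 0.38 at 1 µg/kg (edgeR adjusted p = 0.000780), 1.71 ± 0.38 at 3 µg/kg (adjusted p = 0.00227), 2.49 ± 0.38 at 10 µg/kg (adjusted p = 2.86e-06) and 4.00 ± 0.40 at 30 µg/kg (16.1-fold, adjusted p = 5.92e-11). Of the stretches of 75 bases in the longest coding transcript of Gsta1, 86.3% also occurred in a transcript of another gene, most often the predicted gene Gm3776, so most reads of that length could not have been placed uniquely and its level is uncertain. Gm3776, singled out after its values were seen, went from 2.27 ± 0.96 CPM in vehicle to 52.1 ± 19.4 CPM at 30 µg/kg.

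Gsta2, the closest listed relative of Gsta1, was not called at any dose. Its vehicle values were 49.8, 71.4, 56.1, 72.7 and 89.1 CPM, and its values at 30 µg/kg were 43.6, 97.3, 81.6, 88.4 and 130 CPM, with replicate 1 below every vehicle mouse and the groups overlapping. Fitted at 30 µg/kg, the log2 fold change was 0.38 ± 0.23 (edgeR adjusted p = 0.155). Without replicate 1 it was 0.55 with an adjusted p of 0.0282, under the threshold on p but short of the fold threshold. With libraries scaled to total counts alone it was 0.88 and was called (adjusted p = 0.000537). Of its own stretches of 75 bases 46.9% were shared, mostly with the predicted gene Gm10639. When the reads of Gsta1 and Gsta2 were summed before the fit, the sum rose only at 30 µg/kg (log2 1.03, adjusted p = 0.000184).

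Gsta3, an abundant alpha-class subunit, fell. The vehicle mice had 2046, 2042, 1878, 1876 and 2094 CPM, and no mouse at 0.3, 3, 10 or 30 µg/kg reached the lowest of these. The 10 µg/kg mice had 1587, 1252, 1110, 1418 and 1567 CPM, and the 30 µg/kg mice had 1167, 479, 472, 622 and 716 CPM. At 10 µg/kg the log2 fold change of -0.52 ± 0.15 had an edgeR adjusted p of 0.00556 but did not reach the fold threshold, and at 30 µg/kg it was -1.52 ± 0.15 (2.87-fold lower, adjusted p = 4.39e-11). Without replicate 1 the value at 30 µg/kg was -1.80. None of its stretches of 75 bases was shared with another gene.

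Gsta4, which detoxifies 4-hydroxynonenal, was called at the top dose alone. The vehicle mice had 71.9, 79.4, 98.3, 99.2 and 116 CPM, the 10 µg/kg mice had 73.2 to 126 CPM, and the 30 µg/kg mice had 114, 247, 238, 299 and 318 CPM. Replicate 1 lay inside the vehicle range, and the other 4 mice were all above it. The log2 fold change was 0.11 ± 0.19 at 10 µg/kg (edgeR adjusted p = 0.697) and 1.39 ± 0.19 at 30 µg/kg (2.62-fold, adjusted p = 7.86e-08), and without replicate 1 the latter was 1.57. The step from 10 to 30 µg/kg was called (log2 1.27 ± 0.19, adjusted p = 2.01e-06).

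**Figure D2:**
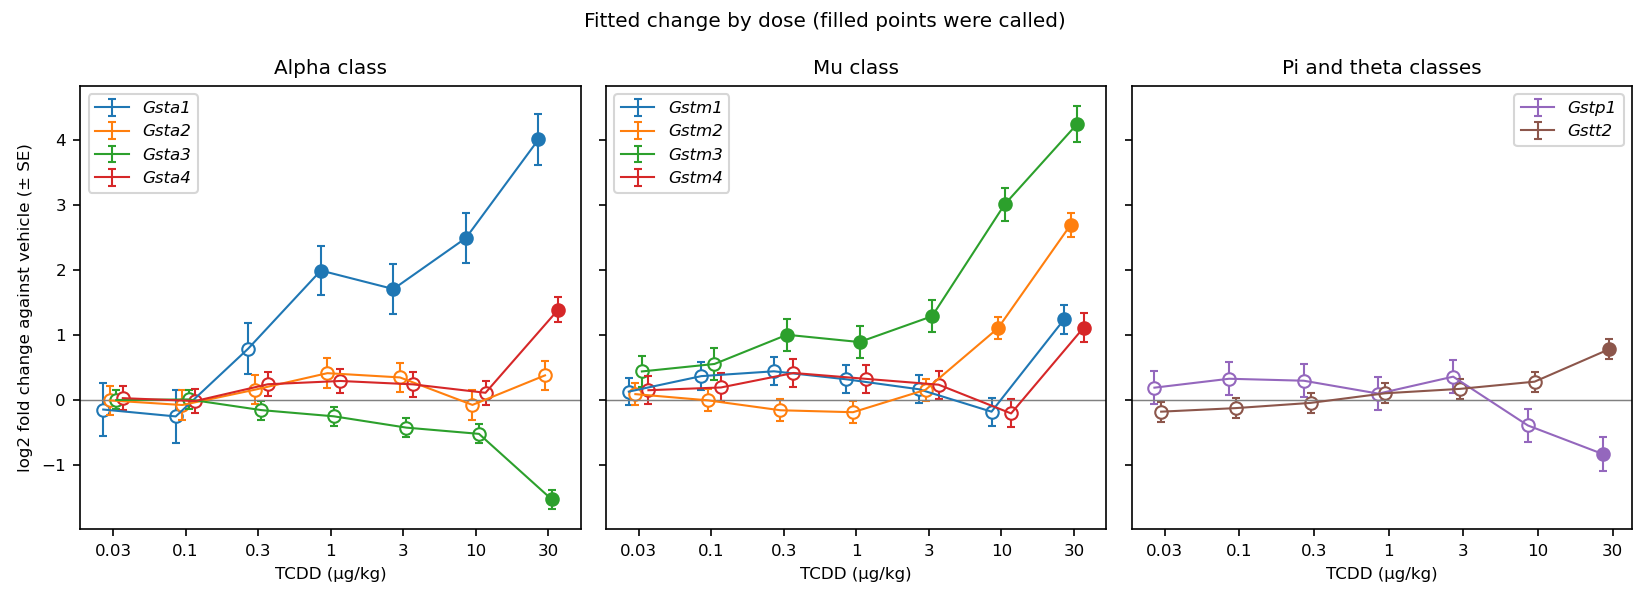
Fitted log2 fold change of each member against the 5 vehicle mice, by TCDD dose, with bars of 1 SE. Filled points were called and open points were not: Gstm3 is filled from 0.3 µg/kg, Gsta1 from 1 µg/kg, Gstm2 from 10 µg/kg, and all members other than Gsta2 are filled at 30 µg/kg.

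The 4 mu members are neighbours on chromosome 3 and were all called higher at 30 µg/kg, but differed over the lower doses. Gstm2 followed Gstm3 at the top of the range. It lay between 103 and 116 CPM in vehicle mice, had 262, 199, 192, 243 and 271 CPM at 10 µg/kg, and had 342, 737, 685, 851 and 892 CPM at 30 µg/kg, and these 3 groups did not overlap. Its log2 fold change was 1.11 ± 0.17 at 10 µg/kg (edgeR adjusted p = 3.74e-06) and 2.69 ± 0.18 at 30 µg/kg (6.46-fold, adjusted p = 3.46e-15).

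Gstm1, the member with the highest mean level of uniquely placed reads per kilobase of exon in vehicle and at 30 µg/kg, was called at the top dose alone. The vehicle mice had 2512, 2247, 2634, 2612 and 2985 CPM, and the means then went from 3530 CPM at 0.3 µg/kg to 2296 CPM at 10 µg/kg. The 10 µg/kg mice had 2488, 1808, 1728, 2588 and 2869 CPM and overlapped vehicle, with a log2 fold change of -0.18 ± 0.21 (edgeR adjusted p = 0.567), which was 0.02 with libraries scaled to total counts. The 30 µg/kg mice had 2042, 6492, 6889, 7838 and 7402 CPM, so that 4 mice were over every mouse of the other doses and replicate 1 was below every vehicle mouse. At 30 µg/kg the log2 fold change was 1.24 ± 0.22 (2.36-fold, adjusted p = 6.47e-06) and 1.46 without replicate 1, and the step from 10 µg/kg was 1.42 ± 0.22 (adjusted p = 3.25e-06). Gstm4, another mu subunit, was likewise called at the top dose alone. Its values were 86.4, 96.2, 97.0, 89.1 and 104 CPM in vehicle, 105, 69.9, 48.1, 86.4 and 100.3 CPM at 10 µg/kg, and 67.8, 184, 184, 244 and 342 CPM at 30 µg/kg, with replicate 1 again below every vehicle mouse. Its log2 fold change was -0.21 ± 0.22 at 10 µg/kg (adjusted p = 0.510) and 1.11 ± 0.22 at 30 µg/kg (2.16-fold, adjusted p = 3.7e-05), or 1.33 without replicate 1. At 0.3 µg/kg, where neither was called, all 5 mice lay above every vehicle mouse for Gstm1 (3231 to 4147 CPM, log2 0.44 ± 0.21, adjusted p = 0.664) and for Gstm4 (117 to 136 CPM, log2 0.42 ± 0.22, adjusted p = 0.715). The titles of the samples fall into numbers up to 27 and numbers from 28, and among the first of these alone neither Gstm1 (log2 0.78, adjusted p = 0.0778) nor Gstm4 (log2 0.42, adjusted p = 0.294) was called at 30 µg/kg, where replicate 1 was 1 of 2 mice. Within those numbers 5 members were called higher and 2 lower at 30 µg/kg, and within the later numbers 7 were called higher and 1 lower. The shares of all genes called within either set of numbers were not computed.

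Gstp1, the pi-class enzyme and among the most abundant transferase transcripts of male mouse liver, fell at the top dose against a wide spread. Vehicle mice had 1356, 1140, 2548, 2624 and 1744 CPM and the 30 µg/kg mice had 1107, 806, 896, 987 and 1507 CPM, so that 1 treated mouse lay within the vehicle range and 4 lay below it. The log2 fold change was -0.83 ± 0.26 at 30 µg/kg (1.77-fold lower, edgeR adjusted p = 0.00595), and it was not called at lower doses. With libraries scaled to total counts alone, which moved the median of all genes at 30 µg/kg from 0.03 to 0.52, the change of Gstp1 was -0.35 (adjusted p = 0.190). With that scaling 8 members were called higher and 1 lower, and the share of all genes called was not counted. Gstp2 shared 57.7% of the 75-base stretches of Gstp1, so reads of the 2 genes cannot be fully separated, but their counts diverged. Gstp2 rose from 2.05 CPM in vehicle to 8.79 CPM at 0.3 µg/kg (log2 2.11 ± 0.45, adjusted p = 0.0103) and 17.0 CPM at 10 µg/kg (log2 3.05 ± 0.45, adjusted p = 1.36e-06), while per kilobase of exon Gstp1 stood at 1216 and 685 CPM and Gstp2 at 1.85 and 10.4 CPM in vehicle and at 30 µg/kg. Summed with Gstp2 and Gstp3, the pi genes were lower at 30 µg/kg (log2 -0.81, adjusted p = 0.00680).

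Gstt2, a theta-class member, had the smallest change among those called. It lay at 70.1, 75.1, 74.4, 82.5 and 81.9 CPM in vehicle and at 99.4, 167, 151, 114 and 128 CPM at 30 µg/kg, without overlap. The log2 fold change was 0.28 ± 0.15 at 10 µg/kg (edgeR adjusted p = 0.160) and 0.78 ± 0.15 at 30 µg/kg (1.72-fold, adjusted p = 3.8e-05). Its theta neighbour Gstt1 went the other way, from 321 to 61.6 CPM at 30 µg/kg (log2 -2.38 ± 0.22, adjusted p = 8.64e-12), and Gstt3 was not called (log2 -0.35 ± 0.23, adjusted p = 0.211, and 0.13 with libraries scaled to total counts).

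Between 10 and 30 µg/kg 6 members were called higher (Gsta1, Gsta4 and the 4 mu members) and Gsta3 lower, beside 10.6% of all genes higher and 10.6% lower. Without replicate 1 of the 30 µg/kg group Gsta2 was also called higher (log2 0.62, edgeR adjusted p = 0.0202), as it was without replicate 5 of the 10 µg/kg group (log2 0.61, adjusted p = 0.0484). The step was not called for Gstt2 (log2 0.50 ± 0.15, adjusted p = 0.0103, short of the fold threshold) or for Gstp1 (log2 -0.44 ± 0.25, adjusted p = 0.198). This comparison shares its 30 µg/kg mice with the comparison against vehicle.

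Per kilobase of exon, the order of the members changed between control and top dose. Only uniquely placed reads were counted, over the full exon length, so members that share sequence with other genes may read low. At 75 bases the shared part was 86.3% for Gsta1, 57.7% for Gstp1, 46.9% for Gsta2, 21.6% for Gstm3 and 14.8% for Gstm1. It was 3.13% for Gstm2 and 0 for Gsta3, Gsta4, Gstm4 and Gstt2. The order and shares below were not corrected for this. In vehicle liver Gstm1 led (1764 ± 180 CPM per kb), followed by Gstp1 (1216 ± 438), Gsta3 (457 ± 24), Gstm3 (113 ± 9.5) and Gsta4 (73.5 ± 13.9), and Gsta1 was last (3.81 ± 1.65). Gstm1 and Gstp1 overlapped, as did Gsta4, Gstm2, Gsta2 and Gstm4 in sequence, while the other neighbours in that order did not. At 30 µg/kg Gstm1 (4163 ± 1591 CPM per kb) was followed by Gstm3 (2138 ± 901), Gstp1 (685 ± 177) and Gstm2 (418 ± 130), and every neighbour in the order overlapped the next other than Gstm3 and Gstp1. As a share of the summed level per kilobase of the 10 members, Gstm3 went from 3.00% ± 0.50 in vehicle to 22.2% ± 4.7 at 10 µg/kg and 26.4% ± 4.5 at 30 µg/kg. Over the same doses Gstp1 went from 31.1% ± 7.4 to 22.5% ± 4.0 and 9.59% ± 4.99, and Gsta3 from 12.2% ± 2.2 to 7.97% ± 1.00 and 2.52% ± 2.40. The last value rests on replicate 1, where Gsta3 held 6.82%, and without that mouse it was 1.45% ± 0.15 (n = 4).

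**Figure D3:**
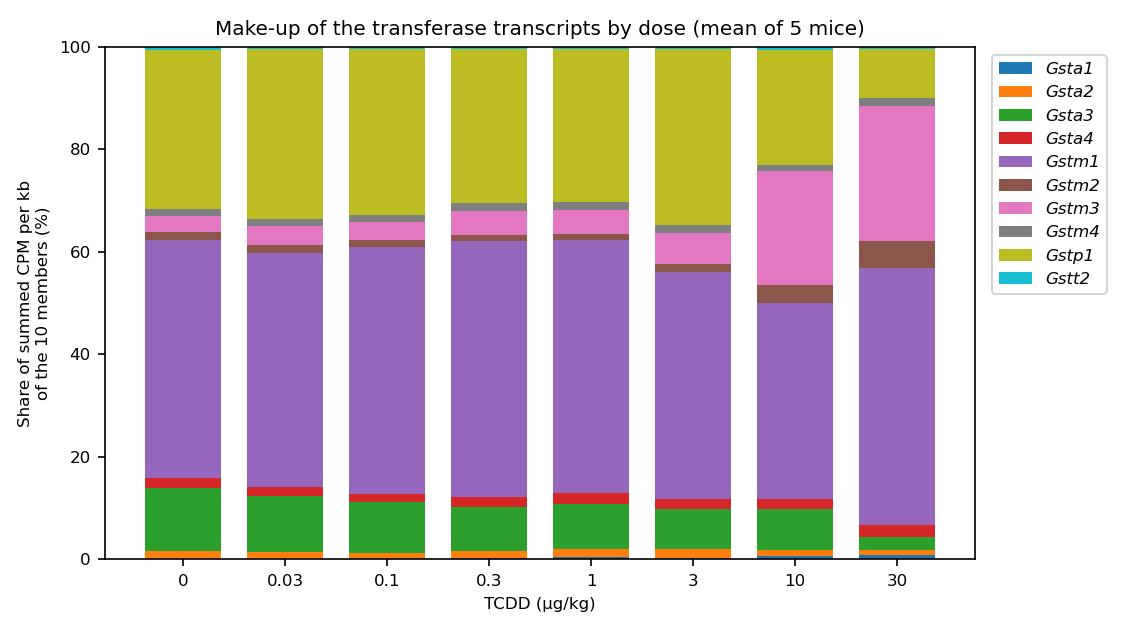
Share of each member in the summed CPM per kilobase of exon of the 10 members, as the mean of 5 mice at each TCDD dose. Levels are of uniquely placed reads and are not corrected for sequence shared with other genes. The Gstm3 segment grows from 3.00% in vehicle to 26.4% at 30 µg/kg while the Gstp1 segment shrinks from 31.1% to 9.59%.

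Other transferase genes of the same clusters went in both directions. On chromosome 3 the mu genes lie in the order Gstm5, Gstm7, Gstm6, Gstm3, Gstm2, Gstm1 and Gstm4. At 30 µg/kg the first 3 were called lower, with log2 fold changes of -0.59 ± 0.21 for Gstm5, -2.03 ± 0.24 for Gstm7 and -2.58 ± 0.17 for Gstm6, and the next 4, all members, were called higher. Gstm5 was near the fold threshold, and 9 of the 12 other fits that keep it as a gene of its own did not call it. Gstm6 and Gstm3 are adjacent and shared 4.62% of the 75-base stretches of Gstm6. Gstm6 was already lower at 10 µg/kg (log2 -1.28 ± 0.17, edgeR adjusted p = 1.41e-07), where Gstm3 and Gstm2 were higher. Summed over the 7 mu genes, the class was higher at 30 µg/kg (log2 1.63, adjusted p = 1.31e-08) and was not called at 10 µg/kg (log2 0.30, adjusted p = 0.274).

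**Figure D4:**
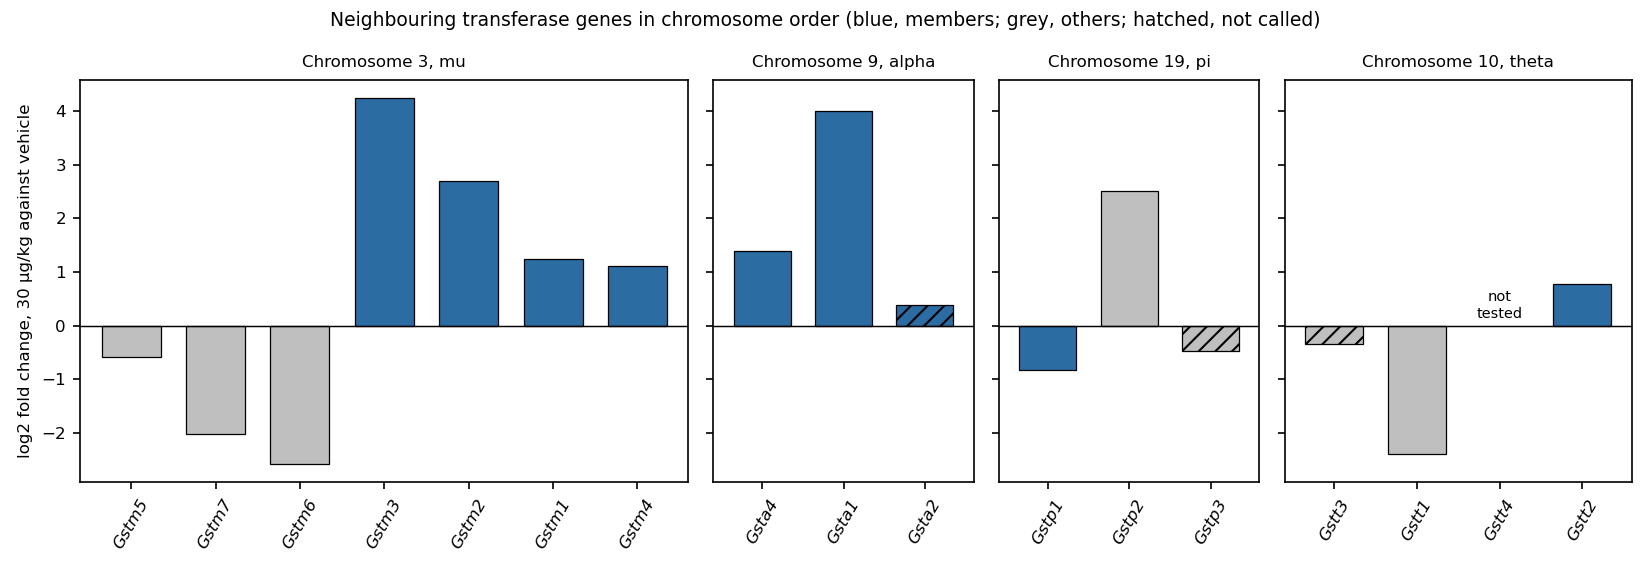
Log2 fold change at 30 µg/kg against vehicle (5 mice each) of transferase genes in chromosome order, with members in blue, other genes in grey, and hatching for genes not called. Gstm5, Gstm7 and Gstm6 lie below 0 and the 4 mu members beside them lie above 0, and Gstp1 and Gstp2 differ in sign.

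Of 19 other transferase genes listed, 17 were found by symbol and 15 passed the filter, and at 30 µg/kg 5 were called higher and 7 lower (median log2 fold change -0.47), beside 23.2% and 18.9% of all genes and a median of 0.03. The microsomal Mgst2 had the highest fitted value (log2 3.06), but with 0 to 5 counts per vehicle library and 12 to 39 at 30 µg/kg it passed the filter through its treated libraries, so its call carries little weight. Hpgds, the haematopoietic prostaglandin D synthase of the sigma class, went from 0.672 CPM in vehicle to 5.79 CPM at 30 µg/kg (log2 3.06 ± 0.47). Gstm6 had the largest decrease, and the pi gene Gstp3 was not called (log2 -0.47 ± 0.25, edgeR adjusted p = 0.112). Among those lower were the mitochondrial and peroxisomal kappa gene Gstk1 (log2 -1.99 ± 0.19) and Gstz1, the maleylacetoacetate isomerase of tyrosine breakdown (log2 -1.39 ± 0.15). Microsomal Mgst1, at 2923 CPM in vehicle, was lower (log2 -1.45 ± 0.12). Mgst3 was lower at 10 µg/kg (log2 -0.73 ± 0.24, edgeR adjusted p = 0.0189) and higher at 30 µg/kg (log2 1.48 ± 0.24, adjusted p = 1.98e-06). Hpgds, Gstk1, Gstz1, Mgst1 and Mgst3 were singled out after their values were seen.

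Genes that make, recycle, break down and export glutathione or its conjugates changed in both directions. Of 27 such genes listed, 26 were tested and 11 were called higher and 7 lower at 30 µg/kg (median log2 fold change 0.34), beside 23.2% and 18.9% of all genes and a median of 0.03, and 6 and 3 were at 10 µg/kg. Of the 4 synthesis genes 3 rose, among them Gclc, the catalytic subunit of the rate-limiting ligase (log2 0.81 ± 0.18, edgeR adjusted p = 0.000163), and Gclm, its modifier subunit, was not called (log2 0.26 ± 0.08). Slc7a11, the cystine importer and 1 of these 3, had 0 counts in all 5 vehicle libraries and 104 to 7579 counts at 30 µg/kg. It therefore passed the filter through its treated libraries. Its mean at 30 µg/kg (142 ± 125 CPM (SD, n = 5)) was at least 743-fold higher when each vehicle library is set at a floor of 3 counts. That ratio is of the group mean and does not hold for every mouse. Of the 6 recycling genes 3 rose and 0 fell, with Gsr, glutathione reductase, at log2 2.09 ± 0.18 (adjusted p = 1.01e-12). Of the 11 breakdown and mercapturate genes 3 rose and 6 fell, and Acy1, an aminoacylase, had the largest decrease of the list (log2 -2.10 ± 0.25, adjusted p = 2.74e-09). Of the 5 exporters Abcc1 and Abcc4 rose (log2 2.75 ± 0.32 and 6.51 ± 0.40), Abcg2 fell (log2 -1.02 ± 0.11), and Abcc2, the canalicular exporter of conjugates, was at log2 0.06 ± 0.13 (adjusted p = 0.706). Apart from Slc7a11 and Acy1 these genes were named after their values were seen.

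Among 20 factor and indicator genes, 10 were called higher and 2 lower at 30 µg/kg (median log2 fold change 0.88), beside the same shares of all genes. All 4 AhR indicators and all 4 NRF2 indicators rose. Of the 2 indicators of the xenobiotic receptors CAR and PXR none rose and Cyp3a11 fell (log2 -0.61 ± 0.14, edgeR adjusted p = 0.000273), and Cyp2b10 was higher at 10 µg/kg (log2 2.21 ± 0.46, adjusted p = 0.000213) and not called at 30 µg/kg (log2 -0.36 ± 0.45). The AhR indicator Cyp1b1 had the largest log2 fold change of the list (12.37 ± 0.38 at 30 µg/kg), and that of Cyp1a1 was 11.12 at 0.3 µg/kg and 11.75 at 30 µg/kg. The NRF2 indicator Nqo1 had log2 2.73 ± 0.22 at 10 µg/kg and 4.80 ± 0.24 at 30 µg/kg, and Srxn1 had 1.24 ± 0.24 and 4.42 ± 0.27. In replicate 1 of the 30 µg/kg group Nqo1 stood at 99.4 CPM, against 189 to 211 CPM in the other 4 mice and 5.04 to 7.34 CPM in vehicle. Nfe2l2 itself rose (log2 2.45 ± 0.20, edgeR adjusted p = 5.9e-13), while Keap1, its repressor, was not called (log2 -0.12 ± 0.11, adjusted p = 0.386). Apart from Cyp1b1 these were singled out after their values were seen, and whether any factor acted on a member was not tested.

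Some markers of cell types were called from lower doses than most members were. At 3 µg/kg 3 of 5 hepatocyte markers were called lower, and 4 of 6 macrophage, 2 of 2 neutrophil and 1 of 3 stellate markers higher. No lymphocyte, endothelial or cholangiocyte marker was called there. Of 26 markers tested, 7 were higher, 3 lower and 16 not called, beside 4.53% of all genes higher (the share lower is not given here). At 10 µg/kg 4 hepatocyte markers were lower and all 6 macrophage markers higher. Of the 26, 13 were higher and 4 lower, beside 13.6% and 8.13% of all genes. At 30 µg/kg 17 were higher and 6 lower, beside 23.2% and 18.9% of all genes. All 5 hepatocyte markers were lower at 30 µg/kg, and their summed level was 26799 to 57263 CPM, against 95215 to 116323 CPM in vehicle. All 6 macrophage markers were higher, with a summed level of 386 to 1001 CPM against 112 to 164 CPM. The 2 neutrophil markers tested, all 3 lymphocyte markers, 1 of 3 endothelial, 2 of 3 stellate and 3 of 4 cholangiocyte markers were higher, and the cholangiocyte marker Sox9 was lower. The summed neutrophil level was 6.85 to 27.0 CPM (0 to 1.04 CPM in vehicle), the lymphocyte level 2.54 to 7.34 CPM (1.37 to 2.39 CPM), the endothelial level 133 to 180 CPM (85.0 to 108 CPM), the stellate level 160 to 388 CPM (34.2 to 56.7 CPM) and the cholangiocyte level 15.9 to 95.8 CPM (14.4 to 19.3 CPM). The highest cholangiocyte value was that of replicate 2, and without it the range was 15.9 to 21.7 CPM and 2 of 4 markers were called higher, with Krt19 at log2 0.77 (edgeR adjusted p = 0.163). Ly6g was at 0 counts in every vehicle library and at no more than 7 counts at 30 µg/kg. In whole liver fewer cells of a type and less RNA per cell cannot be told apart, and the part of these shifts in the members' changes was not tested.

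Within a dose, mice differed from each other in some of the members together, among them the mu members, Gsta4 and Gsta2. After the mean of each dose group was subtracted from log2 CPM, the 6 pairs of mu members had Pearson r of 0.64 to 0.88 over 40 mice, and 0.57 to 0.76 without replicate 1 of the 30 µg/kg group. Gsta4 had r of 0.67 to 0.81 with the mu members (0.51 to 0.67 without that mouse). Its r with Gsta2 was 0.82 (0.76 without that mouse). With the mu members r was 0.47 to 0.72 for Gsta2 (0.35 to 0.62 without that mouse). It was 0.33 to 0.42 for Gsta1 (0.25 to 0.37) and 0.20 to 0.41 for Gstt2 (0.10 to 0.29). Gsta3 had r of -0.29 to 0.05 with the mu members over 40 mice and 0.55 to 0.90 over 39, so that sign rests on 1 mouse. Gstp1 had r between -0.17 and 0.22 with each of the other 9 members (-0.16 to 0.36 without it) and 0.75 with Gstp2. Transferase genes outside the members were correlated with some of them too. Mgst3 had r of 0.80 with Gstm1 (0.57 without that mouse), and Gstm6 had r of 0.21 with Gstm4 (0.88 without that mouse). These values are descriptive, and the genes of a pair share libraries and, for close paralogs, sequence.

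**Figure D5:**
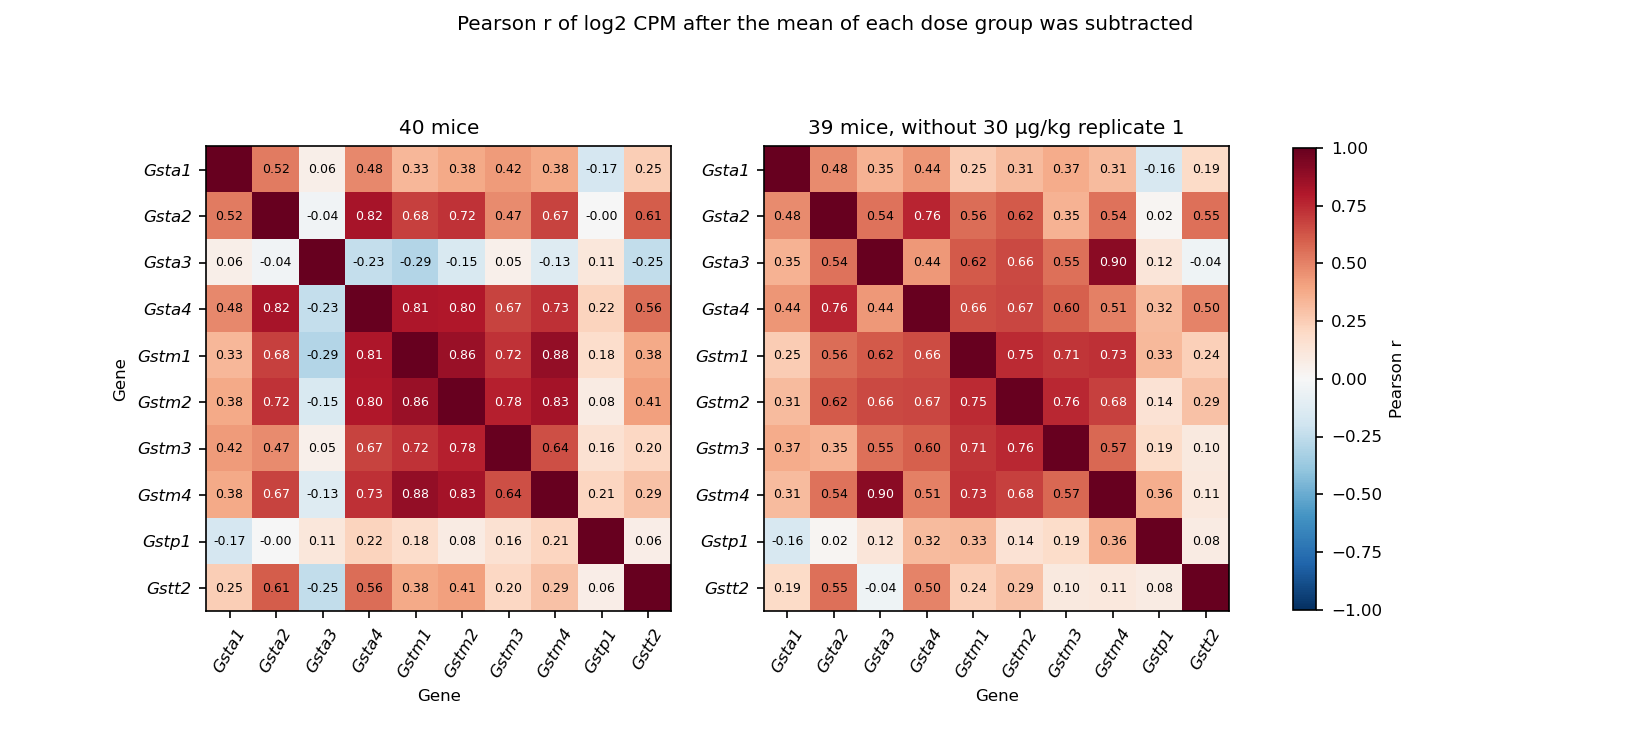
Pearson r between members of log2 CPM after the mean of each dose group was subtracted, over 40 mice on the left and over 39 mice on the right, without replicate 1 of the 30 µg/kg group. The mu members and Gsta4 are correlated in both, Gstp1 lies between -0.17 and 0.36 over both, and Gsta3 with the mu members goes from between -0.29 and 0.05 to between 0.55 and 0.90.

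Over the 8 group means of log2 CPM, genes most like Gstm3 outside the family and the lists included Rab3b (r = 0.993), Vps39 (r = 0.992), Clic4 (r = 0.992) and Slc1a4 (r = 0.992), out of 10493 searched. Their ranges differed widely, from 4.47 in vehicle to 4.88 at 30 µg/kg for Vps39 and from 3.38 to 6.57 for Slc1a4.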

How the data were processed

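Liver RNA of 40 male mice was sequenced, and the authors deposited whole-number read counts per gene from STAR 2.7.3a (after FastQC 0.11.7 and Trimmomatic 0.39, per the labels) and a table of normalized log2 values. The labels name the builds GRCm39 and mm10 without saying which was used, and the read length is not given in the sources used here. The unstranded count column was used, since the kit did not mark strand (50.0% to 50.3% of stranded counts fell on 1 strand). Reads from overlapping or antisense genes therefore cannot be told apart, and reads that map to several places (5.24% to 7.43%) were not counted. A share of 71.3% to 80.8% of reads fell in genes.

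Symbols were found for 52083 of 55359 identifiers. Genes were filtered with filterByExpr, scaled by TMM and tested with edgeR 4.0.16 (R 4.3.3, quasi-likelihood, all 40 libraries, 1 mean per group), with Benjamini-Hochberg adjustment over 15373 genes. The SE is the absolute log2 fold change divided by the square root of F. The same script was tested on simulated data. Alternatives used DESeq2 1.42.0, limma 3.58.1 on the deposited log2 values, other scalings, filters and samples. Named genes were the members, genes of their classes, the largest and smallest change in each list and the 5 genes most like Gstm3 over group means. Of these, 2 genes are not reported here. Other names were chosen after their values were seen and are marked so. The members and lists were chosen with earlier results of these data known. Each library is 1 mouse by its label, and the 80 pairs of libraries within groups differed by more than sampling noise (chi-square per degree of freedom 11.1 to 196), so each was counted as its own sample. Promoter sequences and gene order are from RefSeq on GRCm38.p6.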

Additional observations from a re-analysis of the deposited data

Results flagged for a closer look

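In 4 of the 80 groups of 5 mice tested (10 members in 8 groups), the gap between an end sample and its nearest neighbour was over 0.71 of the group's range. Chance flags about 1 in 20 groups, which is 4 of 80. Gsta1 was at 2.66 CPM in replicate 5 of the 0.3 µg/kg group, where the other 4 mice had 6.61 to 7.66 CPM. Gsta1 was at 8.54 CPM in replicate 2 of the 10 µg/kg group, where the others had 21.6 to 24.0 CPM. Gstm1 was at 2042 CPM in replicate 1 of the 30 µg/kg group, where the others had 6492 to 7838 CPM. Gstm3 was at 155 CPM in replicate 1 of the 0.1 µg/kg group, where the others had 224 to 247 CPM.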

How the results depend on the processing

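No paired analysis was possible because the labels give no replicate numbers shared between groups. Of 507 log2 fold changes under 13 alternatives, 462 kept their direction and side of the threshold, as did 1622 of 1640 with 1 of the 40 libraries left out. Of the 507, 482 were of the gene itself and the others were of its paralogs summed. Counts of called genes stayed within 1.5 times in 243 of 262 cases under the alternatives and in 861 of 880 with a library left out, and the others follow. Libraries scaled to total counts moved the median log2 fold change of all genes at 30 µg/kg to 0.52, and members called lower there fell to 1, as they did among the later sample numbers alone. The count called higher at 0.3 µg/kg was 0 with the numbering run as a covariate, within either run and with limma. At 1 µg/kg it was 1 in the first run and 0 in the later, and at 3 µg/kg it was 1 in either. With no fold threshold 1 member, Gsta3, was lower at 10 µg/kg. For 30 against 10 µg/kg the first run alone, with 2 mice at each dose, gave 2 higher and 0 lower. Other transferases called higher at 30 µg/kg were 3 with a mean count of at least 50 and 3 with a stranded column. Factor genes called lower at 30 µg/kg were 5 with no fold threshold, 0 with total counts, 1 with a mean count of at least 50 and 1 in the first run. At 10 µg/kg the sign turned with total counts for Gsta2 (0.13) and Gstm1 (0.020), and in the first run for Gsta4 (-0.14). At 30 µg/kg it turned for Gstt3 (0.13 with total counts). With paralogs summed, the value is of a class total and gives no sign for a single member. At 10 µg/kg that value was 0.25 for Gsta1 with Gsta2 and 0.30 for the mu genes, whereas Gsta2, Gstm1 and Gstm4 alone were below 0. Leaving out 1 library gave 0 to 1 members higher at 0.3 µg/kg, 1 to 2 at 1 µg/kg and 1 to 3 factor genes lower at 30 µg/kg, and moved Gsta2 at 10 µg/kg between -0.23 and 0.043 (without vehicle replicate 5), with 0.019 without replicate 2 of that group. Gstp3 was called lower at 30 µg/kg without replicate 1 or without replicate 5 of that group (-0.77 for both). The marker counts without replicate 2 and the shares without replicate 1 of the 30 µg/kg group were chosen after seeing the data. The shares of all genes called under these alternatives were not counted, and the cause of these changes was not tested.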

Other observations

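Gstp1 varied within dose groups together with genes outside the family. After the group means were subtracted from log2 CPM, the genes with the highest Pearson r with Gstp1 over 40 mice, out of 9307 searched, included Gstp2 (r = 0.75), Cyp7b1, an oxysterol hydroxylase (r = 0.71), Cyp2d9, a steroid hydroxylase (r = 0.70), and Serpina1e, an alpha-1-antitrypsin gene (r = 0.69). Also among the highest were Snx15 (r = 0.70), Dynll1, Wbp1 and Polr2c (each r = 0.69), and Map2k3 and Serpina12 (each r = 0.68). The lowest included Slc4a4, a bicarbonate cotransporter (r = -0.81), Cd36, a fatty acid translocase (r = -0.75), Abcd2 (r = -0.73) and Ccng1 (r = -0.72). Cyp7b1, Cyp2d9 and Gstp1 are known for higher levels in male than in female mouse liver, and all mice here were male. What lies behind these correlations was not tested. These genes were singled out after their values were seen, and all pairs share libraries. Gstp2 also shares sequence with Gstp1.

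Gsta3 varied within dose groups together with some of the transferase genes that were lower at 30 µg/kg. Its r with Gstm6, Gstm7, Gstk1, Gstz1 and Gstt1 was 0.82 to 0.91 over 40 mice and 0.67 to 0.83 without replicate 1 of the 30 µg/kg group. With the others called lower it was 0.28 for Gstm5 (0.03 without that mouse), 0.43 for Mgst1 (0.45) and 0.11 for Gstp1 (0.12). High values were not confined to genes called lower. Gstp3 and Gstt3, which were not called over all 40 mice, had r of 0.74 and 0.63 with Gsta3 (0.62 and 0.73 without that mouse). Gstm4, which was called higher, had r of -0.13 with Gsta3 (0.90 without that mouse). Gstm6, Gstm7, Gstk1, Gstz1, Gstt1, Gstp3, Gstt3 and Gstm4 were singled out here after their values were seen.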
